A study of Mus musculus with 38 samples.

Results

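The transcription start sites of the cytosolic ribosomal protein genes were followed in mouse soleus muscle before, during and after torpor. A start-site cluster was taken as a member when its deposited position lay within 500 bp, on the same strand, of an annotated 5′ end (GENCODE M21) of a protein-coding gene named *Rpl* or *Rps* followed by a number, *Rpsa*, *Rplp0*, *Rplp1* or *Rplp2*. Kinases of the *Rps6k* family, genes with a pseudogene suffix and *Rps19bp1* were left out. This gave 83 of the 10819 clusters. They belong to 80 of the 85 annotated genes that meet the rule, with 50 clusters of 47 genes of the large (60S) subunit and 33 clusters of 33 genes of the small (40S) subunit. *Rpl9*, *Rpl10l*, *Rpl17*, *Rpl21* and *Rpl39l* had no cluster.

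RNA 5′ ends were sequenced by CAGE without amplification (nAnT-iCAGE), in which 1 tag stands for 1 capped 5′ end, from the soleus of C57BL/6J mice, 1 library from each of 38 mice. The study's methods describe them as young adult males, and all groups share this wild-type strain. Pre mice were fed and sampled on day 1, Mid mice had food removed and were sampled on day 2 during the torpor phase, not all of them torpid at that moment, and Post mice had food returned and were sampled on day 3. The other 3 groups were sampled on day 2: HiT at a high ambient temperature at which no torpor occurred, Fed with food at the low temperature, and Dep kept from torpor by gentle touching. By the study's standard protocol, food was removed on day 2 from Dep mice as from Mid mice. The study describes HiT mice as fasted, while the series' design text says that they had food, and the label of the Fed samples speaks of starvation. The study's description is used here. Experiment #1 held 28 libraries (4 Pre, 8 Mid, 4 Post, 4 HiT, 4 Fed and 4 Dep) and experiment #2 held 10 (2 Pre, 5 Mid and 3 Post).

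Ribosomal proteins are made in near-equal numbers, 1 of each kind for most positions of the ribosome, and their genes are among the most strongly used in any growing cell. In mammals their transcripts begin with a C followed by an uninterrupted stretch of pyrimidines, the 5′ terminal oligopyrimidine or TOP motif. When nutrients are scarce and the kinase mTOR is inactive, the protein LARP1 holds capped TOP mRNAs out of translation, so these transcripts are best known for control after transcription. CAGE reports the amount of capped 5′ ends, and neither translation nor protein was measured.

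Most ribosomal protein transcripts started inside or beside a pyrimidine stretch. The following 25 bases cover 9 before to 15 after the start and are shown for members that the results below turn on, with the longest run of C and T near the start in capitals. The sequences come from the RefSeq promoter table (GRCm38.p6, the mm10 build of the files) and run 5′ to 3′ on the strand of the gene. The start was set 2 bases downstream of the deposited peak. There 78.5% of plus-strand and 78.7% of minus-strand clusters other than the members have the pyrimidine-purine step of mammalian starts. Of the members with a sequence, 92.1% have a pyrimidine at that base. This start was chosen after the sequences had been seen.
*Rpl35a*, chr16:33056473-33056497, plus strand: cttgCCTTCCTCTTTCCgccatctt
*Rpl5*, chr5:107900563-107900587, plus strand: gactccggTCTTTTTCCCCCTTagc
*Rpl12*, chr2:32961705-32961729, plus strand: aggatccgTCTTTTCggctttcggc
*Rps6*, chr4:86857352-86857376, minus strand: aagtcgggCCTCTTTTTCgtgacgc
*Rps26*, chr10:128626488-128626512, minus strand: gccgccggaTCCTCTTTCgagtctt
*Rps13*, chr7:116334120-116334144, minus strand: tacctcgTTCTCTCTTTgctgccag
*Rps20*, chr4:3835584-3835608, minus strand: cggCCCCTCCTTTCTgagccccggc
*Rpl3*, chr15:80083335-80083359, minus strand: ggtcgCTCTCTatctgcggcgtgtg
*Rpl3l*, chr17:24727819-24727843, plus strand: tagCTCTgtcatttgacctctggtg
*Rps27*, chr3:90213631-90213655, minus strand: tttcgCTCCTTTCCggcggtgacga
*Rps27l*, chr9:66946091-66946115, plus strand: taTCCCggaagttgctgaggggcgc
*Rpl35a*, *Rpl5* and *Rps6* carry the long stretch of a classical TOP gene, while *Rpl3l* and *Rps27l*, which are paralogues of *Rpl3* and *Rps27*, have only 4 pyrimidines in a row in the run in capitals.

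A C followed by at least 4 pyrimidines, searched on the strand of the gene at every base within 5 of the start, was present in 66 of the 76 members with a sequence (86.8%) and in 1369 of all 8138 clusters with one (16.8%). The longest run had a median of 11 bases in the members and 3 in all clusters. At the deposited peak itself the motif began in 44 members (57.9%) and 104 clusters (1.28%), and at the start set 2 bases downstream in 26 members (34.2%) and 166 clusters (2.04%), so the exact count depends on which base is called the start. Among the 10 members without the motif in this window were *Rpl28*, *Rpl34*, *Rpl3l*, *Rpl41*, *Rpl7l1* and *Rps27l*. No match says only that these letters were not in this window.

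**Figure D1:**
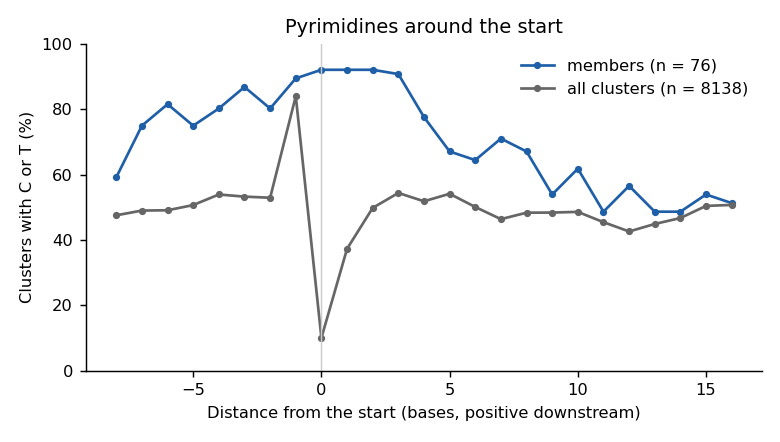
Percent of sequences with C or T (y axis) at each distance in bases from the start (x axis) for the 76 members with a sequence and for all 8138 clusters with one. The members stand above all clusters in the bases around the start, where 66 members (86.8%) hold a C followed by at least 4 pyrimidines.

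Libraries of experiment #1 held 18257657 to 39176649 tags in clusters and those of experiment #2 held 9359994 to 20914855. Values are counts scaled by library size and TMM factors (CPM), and they need no correction for gene length because CAGE counts 5′ ends. All 7 slow and all 10 fast fibre marker genes had a cluster. In experiment #1 the slow markers summed to between 9527 and 15833 CPM and the fast markers to between 14787 and 24334 CPM. In experiment #2 the sums were 19459 to 29600 and 26172 to 35159 CPM. Among the fast markers in experiment #1, *Myh4* ranged from 2.62 to 1674 CPM and *Myh1* from 681 to 1412 CPM. In HiT 4 the 10 strongest clusters took 40.3% of the tags, the highest share of all libraries. As whole muscle was used, fewer cells of a type and less RNA per cell cannot be told apart.

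The members were strong promoters. In experiment #1 their mean levels had a median of 74.0 CPM against 17.5 CPM for all 10776 clusters with tags, and 77 of the 83 lay above that value. *Rps20* was the highest at 1004 CPM, which is 11.8% of the CPM of all members together, and *Rps14*, at 310 CPM, was also among the 3 highest. The lowest were the second cluster of *Rpl13a* (1.15 CPM), the second cluster of *Rpl6* (2.25 CPM) and *Rpl3* (6.48 CPM). In all, 32 members exceeded 100 CPM and 5 were under 10. Levels of capped 5′ ends thus differed widely between genes whose proteins are needed in near-equal numbers. Many ribosomal protein genes have near-identical processed pseudogenes, and tags that map to several places were shared out by the authors, so single levels are uncertain.

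Most members peaked at the annotated start: 66 lay within 20 bases of it, and the clusters were 104 to 662 bp wide with a median of 214. *Rpl13a*, *Rpl6* and *Rpl3l* had 2 clusters each. The second *Rpl13a* cluster lay 313 bases downstream of the nearest annotated 5′ end of that gene and closer to that of *Snord35a*, a small nucleolar RNA encoded in an intron. Another annotated gene started in the window of 10 members, among them *Rpl3* (*Snord43*), so their tags cannot be assigned to one gene with certainty.

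Across the 28 libraries of experiment #1 the members moved largely together. The correlation of a member with the median of the others, as a description over these libraries that share their scaling, had a median of 0.774 and exceeded 0.5 in 73 members. Both *Rpl3l* clusters had the lowest values, −0.47 and −0.56. By group mean with TMM scaling, 74 members were highest in HiT and 69 were lowest in Fed. The same count over all clusters is not given. Each library was summarised by the median over the 83 members of the log2 level minus the mean of Pre. On this scale the 4 Pre libraries lay between −0.02 and 0.01. The 8 Mid libraries lay between −0.22 and −0.05 with a median of −0.17, and all were below Pre. Fed libraries were lower still, at −0.34 to −0.17, and Dep libraries lay at −0.15 to −0.02. Post libraries lay between −0.01 and 0.09 and overlapped Pre. HiT libraries, at 0.13 to 0.24, were above every other library of the experiment. With the deposited TPM in place of TMM-scaled values the group means were −0.02 in HiT, −0.25 in Mid, −0.22 in Fed and −0.27 in Dep, so that HiT no longer lay above Pre and Fed no longer lay below Mid and Dep.

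**Figure D2:**
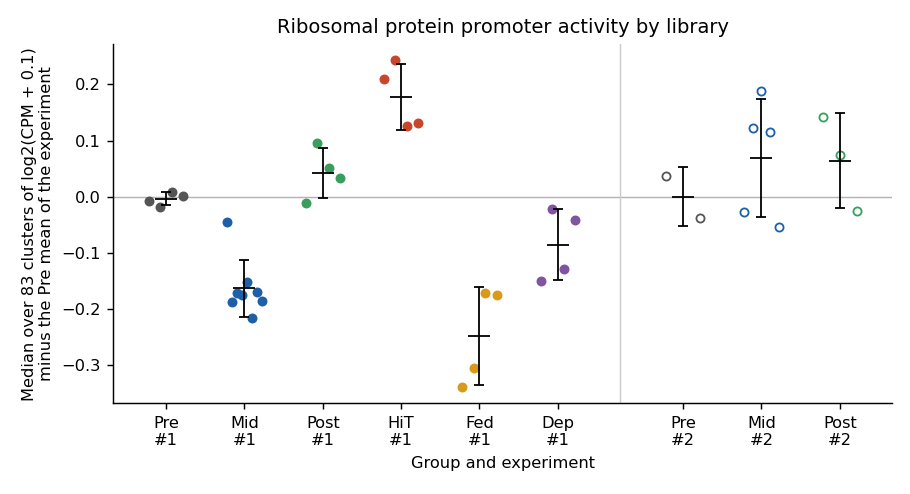
Median over the 83 member clusters of log2(CPM + 0.1) minus the mean of Pre (y axis, log2) for each library (points, open for experiment #2) by group (x axis), with the mean and SD as bars. The 8 Mid libraries of experiment #1 sit between −0.22 and −0.05, the 4 HiT libraries between 0.13 and 0.24 and the 4 Fed libraries between −0.34 and −0.17 with TMM scaling.

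Entry into torpor was addressed by Pre against Mid. Many ribosomal protein promoters fell by a small amount: 35 of 83 were lower in Mid and 0 were higher by edgeR's quasi-likelihood test (Benjamini-Hochberg adjusted p below 0.05), where 30.2% of all clusters were called, 14.8% lower and 15.4% higher. DESeq2 also called 35 lower and 0 higher, and 46 members had an unadjusted p below 0.05 by edgeR's test. The median log2 fold change of the members was −0.16 and that of all clusters 0.01. The fall included 22 clusters of 60S and 13 of 40S genes, and 14 members had all Mid libraries below all Pre libraries, as did 7.28% of all clusters. Summed over the members, the level went from 8808 to 9090 CPM in Pre to 7723 to 8672 CPM in Mid (median 7983).

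*Rpl35a*, a 60S protein, fell the most. Its level was 26.2 to 29.6 CPM in Pre and 18.9 to 24.9 CPM (median 20.1) in Mid, so that the groups did not overlap. The log2 fold change was −0.43 ± 0.08 (SE, adjusted p = 0.000249), and the exact two-sided permutation test gave p = 0.00404, the smallest that 4 against 8 libraries allow. *Rps26*, a 40S protein at the mRNA exit, had 48.3 to 51.3 CPM in 3 Pre libraries, 71.5 CPM in Pre 4 and 39.0 to 47.5 CPM in Mid. Its log2 fold change was −0.36 ± 0.09 (adjusted p = 0.00272), and Mid lay below every Pre library.

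Members with known roles beyond the ribosome or in its stalk were among those that fell. *Rpl5* and *Rpl11*, which carry 5S RNA into the large subunit and bind the p53 regulator MDM2 when assembly fails, fell by 0.24 ± 0.08 (adjusted p = 0.0163) and 0.28 ± 0.07 (adjusted p = 0.00278) on the log2 scale. The *Rpl5* call was lost without Pre 1 (adjusted p = 0.0711) or Pre 2 (adjusted p = 0.0602). *Rplp0*, the base of the stalk that recruits elongation factors, had 136 to 140 CPM in Pre and 113 to 134 CPM in Mid. It fell by 0.15 ± 0.05 (adjusted p = 0.0329), a call lost when Mid 2, 3, 6 or 8 or Pre 1, 2 or 3 was left out (adjusted p from 0.0549 to 0.113). *Rps19*, which is mutated in Diamond-Blackfan anaemia, and *Rpsa*, also known as the laminin receptor, fell by 0.24 ± 0.08 (adjusted p = 0.0263) and 0.22 ± 0.08 (adjusted p = 0.0264). *Rps6*, the substrate of S6 kinase, had 26.02 to 26.8 CPM in Pre and 23.6 to 29.6 CPM in Mid, with a log2 difference of 0.01 ± 0.07 (adjusted p = 0.937).

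The number of calls depended on the scaling and on single libraries. Without TMM scaling 2 members and 924 of all 10776 clusters were lower, with medians of −0.24 and −0.07. With upper-quartile scaling 54 members and 2308 clusters were lower. With the replicate number as a block 11 members were lower and 0 higher, against 1542 and 1605 of all clusters. Mid 5 to 8 share their number with no other library of experiment #1. The block fit therefore compares Mid 1 to 4 alone, and the lower count cannot be put down to blocking. All 38 libraries with experiment as a term gave 17 lower members and 1 higher, against 2106 and 1903 of all clusters. Leaving out Pre 2 gave 17 lower members, Mid 8 gave 18, Mid 6 gave 19, Mid 2 gave 20, and Pre 1 or Pre 3 gave 21. Over all clusters these fits gave 1174, 1311, 1638, 1325, 1327 and 1270 lower, in that order. The median stayed between −0.18 and −0.14 in all 12 such fits.

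Refeeding was addressed by Mid against Post, which shares its Mid libraries with the comparison above. After refeeding 43 members were higher and 0 lower, where 35% of all clusters were called, 17.5% in each direction. Without TMM scaling 2 members and 808 of all clusters were higher. With the replicate number as a block, which again compares only Mid 1 to 4, the counts were 26 members and 1808 clusters. The 4 red blood cell markers with a cluster summed to 2989 to 4237 CPM in Mid and 2018 to 2621 CPM in Post, though none of the 4 passed the test, and their part was not tested. The median log2 fold change of the 83 ribosomal protein members was 0.18 (all clusters −0.01). In 20 members all Post libraries exceeded all Mid libraries, as in 9.003% of all clusters. Of the 43 higher members, 28 belonged to 60S and 15 to 40S genes. The largest rise was that of *Rpl3*, which binds at the peptidyl transferase centre. It had 3.20 to 8.66 CPM (median 4.18) in Mid and 7.52 to 8.94 CPM in Post, and the groups overlapped through Mid 1 alone. The log2 fold change was 0.80 ± 0.18 (adjusted p = 0.00122). *Rpl5* had 37.4 to 52.4 CPM (median 48.5) in Mid and 62.9 to 69.6 CPM in Post, without overlap, a rise of 0.47 ± 0.08 (adjusted p = 2.63e-05). *Rpl12*, part of the stalk base, rose by 0.44 ± 0.10 (adjusted p = 0.00136), from 26.2 to 40.3 CPM in Mid to 40.2 to 52.4 CPM in Post. *Rplp0* rose by 0.16 ± 0.05 (adjusted p = 0.0174), a call lost without Post 2 (adjusted p = 0.0961).

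Counted side by side, 30 members were lower in Mid than in Pre and higher in Post than in Mid, 5 were called in the fall alone and 13 in the rise alone. As the Mid libraries are shared, these counts are no independent evidence of a return. Pre against Post compares separate libraries: no member passed the threshold by edgeR's test, 8 had an unadjusted p below 0.05, and DESeq2 called 1 lower member, with 1.85% of all clusters called, 1.05% higher and 0.798% lower. The median difference was 0.04 on the log2 scale, and −0.02 without TMM scaling. The smallest p that 4 against 4 libraries allow in an exact two-sided permutation test is 0.0286.

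**Figure D3:**
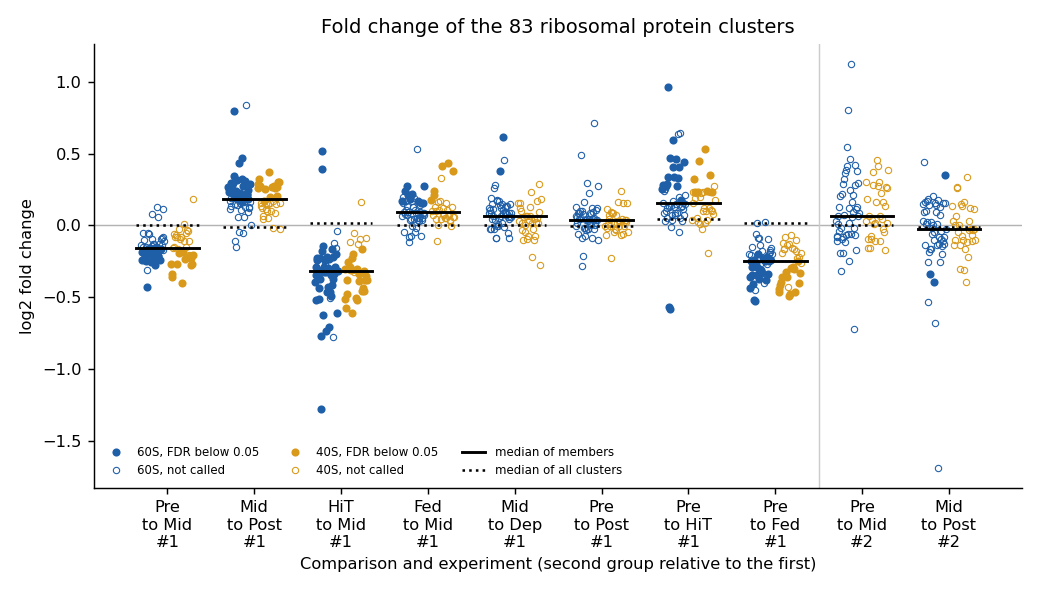
Log2 fold change from edgeR (y axis) of each of the 83 member clusters, blue for 60S and orange for 40S genes, by comparison (x axis), with filled points for an adjusted p below 0.05, a solid line for the members' median and a dotted line for the median of all clusters. Filled points lie below 0 in Pre to Mid and above 0 in Mid to Post of experiment #1, and from HiT to Mid 67 lie below 0 and 2 above, with TMM scaling.

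HiT against Mid set fasted mice at a high temperature without torpor beside fasted mice at the low temperature in the torpor phase. Ambient temperature and torpor thus differ together and cannot be told apart. In Mid 67 members were lower and 2 were higher than in HiT, where 41% of all clusters were called, 21.8% lower and 19.2% higher. Without TMM scaling 13 members and 1010 of all clusters were lower, with medians of −0.23 and 0.11. The members' median was −0.32 and that of all clusters 0.02. All Mid libraries were below all HiT libraries in 36 members and in 11.4% of all clusters. Of the 67, 42 were clusters of 60S and 25 of 40S genes.

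*Rpl3* had 10.01 to 13.03 CPM in HiT and 3.20 to 8.66 CPM in Mid, with no overlap. This log2 fold change of −1.28 ± 0.18 (adjusted p = 2.92e-06) was the largest of any member, on a promoter with few tags. *Rpl35a* had 32.8 to 40.5 CPM in HiT, above every other library of experiment #1, and its fold change was −0.77 ± 0.08 (adjusted p = 3.55e-08). *Rpl12* had 49.4 to 62.0 CPM in HiT and was lower in Mid by −0.74 ± 0.10 (adjusted p = 1.61e-06). *Rpl5*, with 75.4 to 84.7 CPM in HiT, was lower by −0.71 ± 0.07 (adjusted p = 4.22e-08). *Rps6* had 33.9 to 39.9 CPM in HiT, and its fold change to Mid was −0.52 ± 0.07 (adjusted p = 1.38e-06). These ranges did not overlap with Mid.

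The exception was *Rpl3l*, the paralogue that striated muscle uses beside *Rpl3*. Its stronger cluster had 66.9 to 70.5 CPM in HiT and 83.4 to 99.3 CPM in Mid, and its weaker cluster 25.3 to 29.3 and 33.4 to 43.6 CPM. They were higher in Mid by 0.40 ± 0.07 (adjusted p = 9.76e-05) and 0.52 ± 0.09 (adjusted p = 3.72e-05). Both clusters moved in the direction opposite to the other called members, and the groups overlapped in neither. The tags of the *Rpl3l* clusters per tag of *Rpl3* numbered 8.43 ± 0.96 in HiT, 14.5 ± 2.29 in Post, 24.9 ± 5.31 in Pre and 30.02 ± 9.16 in Mid (SD, n = 4, 4, 4 and 8), and 32.7 ± 6.36 in Fed and 22.1 ± 5.33 in Dep (n = 4 each). HiT lay below every other library of experiment #1 in this ratio. In experiment #2, where *Rpl3* had few tags, the ratio was 361 ± 177 in Pre, 276 ± 70.4 in Mid and 337 ± 134 in Post (SD, n = 2, 5 and 3), with Mid the lowest mean.

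Against Pre, HiT had 24 higher and 2 lower members, where 33.4% of all clusters were called, 18.5% higher and 14.9% lower. Without TMM scaling 1 member and 584 of all clusters were higher. The median was 0.16 with TMM scaling and −0.01 without it, where that of all clusters was 0.04 and −0.13. *Rpl3* (0.97 ± 0.21, adjusted p = 0.000964), *Rpl12* (0.59 ± 0.12, adjusted p = 0.000308) and *Rps6* (0.53 ± 0.08, adjusted p = 1.59e-05) rose the most on the log2 scale. The lower members were again the *Rpl3l* clusters, with −0.57 ± 0.08 (adjusted p = 7.55e-06) and −0.58 ± 0.10 (adjusted p = 5.62e-05). *Rpl5* rose by 0.46 ± 0.09 (adjusted p = 0.000222). The 4 HiT libraries of *Rps6* thus lay above every Pre and Mid library.

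Markers of other cells moved with HiT. The 4 macrophage markers with a cluster, of 6 listed, summed to 122 to 283 CPM in HiT and to 32.1 to 81.2 CPM in the other libraries of experiment #1, and all 4 passed the test against both Mid and Pre. *Birc5* and *Hist1h1b*, the cell division markers with a cluster (2 of 6), summed to 8.45 to 25.1 CPM in HiT and 0.161 to 7.77 CPM in the others of experiment #1. The 8 fibroblast and tendon markers summed to 2653 to 5485 CPM in HiT against 1528 to 3399 CPM in those, so the ranges overlapped. Of these 8 markers, 1 was higher and 0 were lower in HiT than in Pre by the test. Against Mid, 2 were higher and 0 lower in HiT. The slow fibre markers summed to 9527 to 12233 CPM in HiT, and 4 of the 7 were higher in Mid than in HiT. None of the 4 lymphocyte markers had a cluster. The part of these cells in the levels of ribosomal protein transcripts in HiT was not tested.

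**Figure D4:**
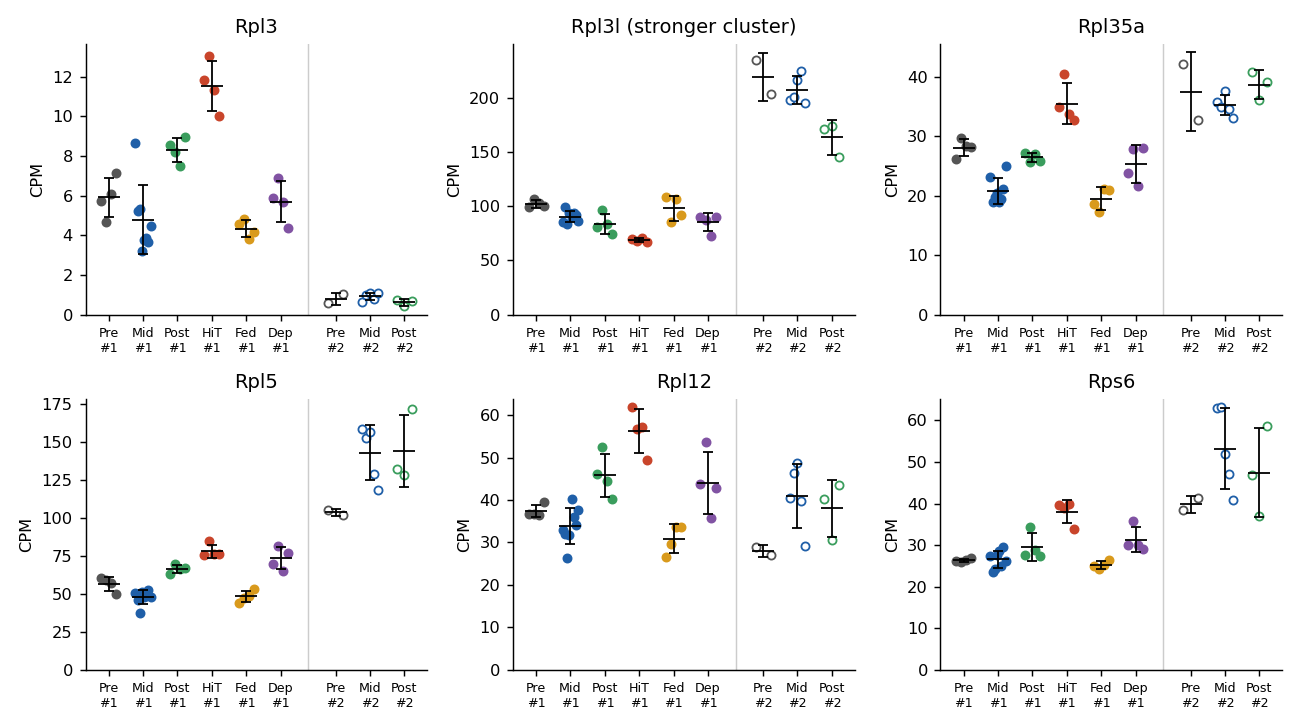
CPM (y axes, TMM scaled) of *Rpl3*, the stronger *Rpl3l* cluster, *Rpl35a*, *Rpl5*, *Rpl12* and *Rps6* in each library (points) by group (x axes), with the mean and SD as bars. *Rpl3l* is lowest in HiT of experiment #1 (66.9 to 70.5 CPM), where the other 5 have their highest group mean, and *Rpl5* stands apart in Dep (65.4 to 81.8 CPM) from Mid (37.4 to 52.4 CPM).

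Fed against Mid set mice with food beside mice without food at the same low temperature. The study reports that no Fed animal entered torpor, so food and torpor cannot be told apart here. In Mid 16 members were higher and 0 lower than in Fed, where 35.2% of all clusters were called, 16.6% higher and 18.6% lower. The members' median was 0.09 (all clusters 0.00) and changed to −0.04 without TMM scaling, where that of all clusters was −0.12. There 0 members passed, and 509 of all clusters were higher and 1672 lower. The count of higher members was near the share among all clusters. It rested on single libraries, with 2 calls without Fed 1, 4 without Fed 2 and 10 without Mid 1. Over all clusters these fits gave 1439, 1372 and 1664 higher. *Rps13*, a 40S protein, differed the most. It had 126 to 163 CPM in Fed and 173 to 219 CPM in Mid, which did not overlap, and a log2 fold change of 0.43 ± 0.08 (adjusted p = 0.000243). *Rps27* rose by 0.42 ± 0.13 (adjusted p = 0.0164), with 17.5 to 18.9 CPM in Fed and 17.1 to 34.3 CPM in Mid. *Rps27rt*, an intronless copy of *Rps27*, rose by 0.38 ± 0.14 (adjusted p = 0.0367), and here Mid 3 had 202 CPM where the other Mid libraries had 94.2 to 108. The *Rps27rt* call was lost without any 1 of the Fed libraries (adjusted p from 0.0587 to 0.103). All 4 red blood cell markers with a cluster were lower in Mid than in Fed, with 13747 CPM summed in Fed 2, and their part was not tested.

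Fed mice on day 2 and Pre mice on day 1 were both fed. This comparison was added after the values had been seen. The members were lower in Fed: 42 were lower and 0 higher, where 11.2% of all clusters were called, 5.32% lower and 5.88% higher. Without TMM scaling 0 members and 4 of all clusters were lower. A fit to these groups alone called 22 members and 218 of all clusters lower. The median was −0.25 against 0.02 for all clusters. All Fed libraries were below all Pre libraries in 55 members, against 8.73% of all clusters. *Rpl35a* had 17.3 to 21.2 CPM in Fed and fell from Pre by 0.53 ± 0.10 (adjusted p = 0.00584) on the log2 scale. *Rpl30*, with 39.3 to 42.4 CPM in Pre and 25.3 to 31.7 CPM in Fed, fell by 0.52 ± 0.11 (adjusted p = 0.00796). *Rps27*, with 25.3 to 26.3 CPM in Pre and 17.5 to 18.9 CPM in Fed, fell by 0.50 ± 0.15 (adjusted p = 0.0362), a call that was lost when any 1 library except Fed 3 was left out (adjusted p from 0.0566 to 0.111). *Rplp0* fell by 0.24 ± 0.06 (adjusted p = 0.0188), lost without Fed 1, Fed 2 or Pre 1 (adjusted p from 0.0566 to 0.0840). None of these 4 overlapped between the groups. The number of lower members was 15 without Fed 1 or Fed 2, 23 without Pre 1, 26 without Pre 3 and 27 without Pre 2. Over all clusters the lower calls fell from 573 to 106 without Fed 1 and to 86 without Fed 2. They were 192 without Pre 1, 282 without Pre 3 and 289 without Pre 2. The 5 endothelium markers summed to 295 to 337 CPM in Fed and 248 to 291 CPM in Pre, and the 2 cell division markers to 0.799 to 1.65 and 0.486 to 0.756 CPM, without overlap, with 1 endothelium marker past the test. Their part was not tested. Fed libraries and Mid libraries, both of day 2 at the low temperature, thus lay below Pre in the median of the members, and what differed between day 1 and day 2 in fed mice cannot be told apart here.

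Torpor deprivation was addressed by Mid against Dep. Only *Rpl5* and *Rpl12* were higher in Dep and no member was lower by edgeR's test, where 2.03% of all clusters were called, 1.16% higher and 0.872% lower. DESeq2 called 5 higher and 1 lower, and 16 had an unadjusted p below 0.05 by edgeR's test. The median was 0.07, and −0.04 without TMM scaling. *Rpl5* had 65.4, 69.8, 76.7 and 81.8 CPM in the 4 Dep libraries, all above the 8 Mid libraries at 37.4 to 52.4 CPM. It was higher by 0.62 ± 0.08 (adjusted p = 0.00013, exact permutation p = 0.00404), or by 0.51 without TMM scaling, where it did not pass. Without TMM scaling 7 of all clusters were higher. *Rpl12* had 35.9 to 53.7 CPM in Dep and overlapped with Mid. Its difference of 0.38 ± 0.10 (adjusted p = 0.0467) was lost when Mid 1, 2, 3 or 4 or Dep 1, 2 or 4 was left out (adjusted p from 0.0578 to 0.255). The count was 1 without Mid 2, Mid 3, Mid 4, Dep 2 or Dep 4. *Rack1*, a scaffold on the small subunit that the symbol rule does not cover, rose by 0.35 ± 0.08 (adjusted p = 0.0319). Neutrophil markers summed to 133 CPM in Dep 1 and to at most 1.56 CPM in every other library of experiment #1. The *Rpl5* call held without Dep 1.

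Several paralogues are expressed beside their parents. *Rps27l* had a mean of 139 CPM in experiment #1 and *Rps27* 24.9 CPM, *Rpl36al* 65.6 and *Rpl36a* 27.7, *Rpl22* 57.9 and *Rpl22l1* 25.4, and *Rpl7l1* 13.2 and *Rpl7* 9.52. In experiment #2 the order of the last pair was reversed (4.38 and 6.18 CPM). The level of *Rpl3l* was 88.2 CPM in its stronger cluster. *Rps27l*, which has no TOP stretch, fell from Pre to Mid by 0.27 ± 0.07 (adjusted p = 0.0042) and rose to Post by 0.30 ± 0.07 (adjusted p = 0.00125). *Rpl36a*, with 35.1 to 40.02 CPM in HiT and 22.1 to 29.2 CPM in Mid, differed by −0.61 ± 0.07 (adjusted p = 1.35e-07), and *Rpl36al* by −0.31 ± 0.07 (adjusted p = 0.00139). *Rpl22l1* rose from Pre to HiT by 0.34 ± 0.10 (adjusted p = 0.0102). *Rpl10* and *Rpl39* had means of 37.4 and 179 CPM and *Rps4x* 34.4 CPM. *Rpl39*, at the exit tunnel, had 192 to 231 CPM in HiT and 140 to 198 CPM in Mid, a difference of −0.32 ± 0.07 (adjusted p = 0.00076).

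The strongest and weakest promoters differed in what could be seen. *Rps20* had 981 to 1119 CPM in Pre, 862 to 1013 CPM in Mid and 1025 to 1133 CPM in Post, and it changed by −0.18 ± 0.06 (adjusted p = 0.0226) and 0.20 ± 0.06 (adjusted p = 0.0111). *Rps14* fell from Pre to Mid by 0.19 ± 0.07 (adjusted p = 0.0289). In none of the comparisons of experiment #1 did 9 members pass, among them *Rpl7*, *Rplp1* and the second clusters of *Rpl6* and *Rpl13a*. The second clusters of *Rpl13a* and *Rpl6*, at 0.324 to 2.78 and 0.746 to 4.53 CPM, were weak, and their differences from Pre to Mid of −0.13 ± 0.39 and 0.13 ± 0.22 had errors beyond the size of the change in most members, so a change of that size was not detectable at this depth.

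Members with and without a TOP stretch near the start had close medians, and the difference was not tested. From HiT to Mid the median was −0.32 in the 66 members with the motif, of which 56 were lower, and −0.36 in the 10 without it, of which 8 were lower. From Pre to Mid the medians were −0.16 and −0.15. The summed CPM of 60S over 40S members averaged between 0.730 and 0.753 in the 6 groups of experiment #1 and between 1.27 and 1.29 in the 3 groups of experiment #2.

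Other genes of the ribosome pathway are compared as counts. Of the 81 clusters of mitochondrial ribosomal protein genes, 2 were higher and 22 lower in Mid than in Pre, against 15.4% and 14.8% of all clusters. In Mid 8 were higher and 14 lower than in HiT with a median of 0.01, against 19.2% and 21.8% of all clusters. Most ribosome biogenesis genes that passed went the other way at torpor entry in experiment #1. Of 36 genes with a cluster (41 listed) 19 rose and 1 fell from Pre to Mid (6 and 0 without TMM scaling), with a median of 0.24, and 1 rose and 15 fell from Mid to Post (7 and 10 with upper-quartile scaling). From Mid to Post 17.5% of all clusters were called in each direction. *Myc*, the transcription factor that drives ribosome production, rose by 2.04 ± 0.25 (adjusted p = 1.54e-06) and then fell by 2.14 ± 0.25 (adjusted p = 4.55e-07). *Gnl3*, which encodes nucleostemin, rose by 0.99 ± 0.13 (adjusted p = 2.45e-06), and *Nop10* was the gene that fell (−0.31 ± 0.08, adjusted p = 0.00577). From Pre to HiT 25 of these genes rose and 0 fell (8 and 0 without TMM scaling), with *Myc* at 1.96 ± 0.27 (adjusted p = 4.81e-06), and from Fed to Mid 25 rose and 0 fell (6 and 0). Of all clusters 18.5% were higher and 14.9% lower from Pre to HiT, and 16.6% and 18.6% from Fed to Mid. In both Mid and HiT of experiment #1 the median of the biogenesis genes was thus above Pre. The median of the ribosomal protein genes was below Pre in Mid and, with TMM scaling, above it in HiT. In experiment #2, 7 biogenesis genes rose and 0 fell from Pre to Mid (median 0.26), against 5.3% and 4.44% of all clusters. From Mid to Post 0 rose and 7 fell, against 7.73% and 8.65%. The ribosomal protein median was not below Pre in Mid there.

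The 19 other translation genes known for a TOP start all had a cluster. From Pre to Mid 7 rose and 2 fell (5 and 4 with upper-quartile scaling, 0 and 0 without TMM), against 15.4% and 14.8% of all clusters. *Pabpc1*, the poly(A)-binding protein, rose by 0.50 ± 0.13 (adjusted p = 0.00561) and *Hnrnpa1* by 0.41 ± 0.08 (adjusted p = 0.000488), while *Eef1g* and *Fau* fell by 0.26 and 0.16. From Pre to HiT 5 rose and 0 fell (2 and 0 without TMM), against 18.5% and 14.9% of all clusters. There *Pabpc1* rose by 1.07 ± 0.15 (adjusted p = 5.45e-06) and *Eef1a1*, elongation factor 1 alpha, by 0.82 ± 0.14 (adjusted p = 6.71e-05). In experiment #2, 2 of the 19 rose and 0 fell from Pre to Mid, with a median of 0.27, against 5.3% and 4.44% of all clusters. Among regulators of TOP translation, 5 of 16 rose and 1 fell from Pre to Mid of experiment #1 (5 and 2 with upper-quartile scaling). *Ddit4* and *Sesn1*, inhibitors of mTOR signalling, rose by 2.65 ± 0.43 (adjusted p = 5.07e-05) and 2.19 ± 0.24 (adjusted p = 4.95e-07), and the cap-binding gene *Eif4e* fell by 0.40 ± 0.13 (adjusted p = 0.0198). *Larp1* had a log2 difference of 0.36 ± 0.25 (adjusted p = 0.279). These are transcript levels and carry no measure of mTOR activity.

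**Figure D5:**
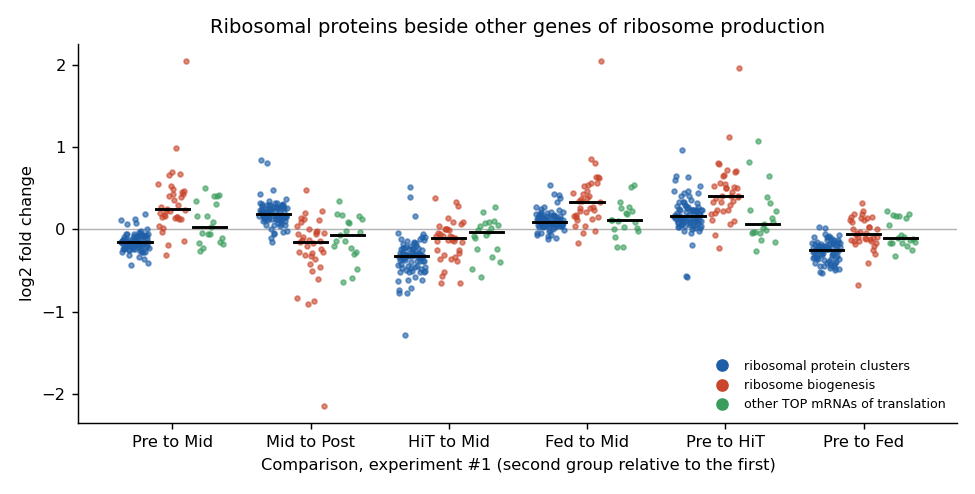
Log2 fold change from edgeR (y axis) of ribosomal protein clusters, ribosome biogenesis genes and other TOP mRNAs (points in 3 colours, with a line for the median) by comparison of experiment #1 (x axis). From Pre to Mid the ribosomal protein median is −0.16 and that of ribosome biogenesis 0.24.

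The comparisons of Pre, Mid and Post were repeated in experiment #2 with other mice. From Pre to Mid no member passed edgeR's test, 6 had an unadjusted p below 0.05, DESeq2 called 1 higher member, and 9.74% of all clusters were called, 5.3% higher and 4.44% lower. The median was 0.07, and the Mid libraries lay between −0.05 and 0.19 against Pre at −0.04 and 0.04 on the library scale used above. The library at 0.19 was Mid 11, where the cell division markers summed to 29.1 CPM (0.695 to 4.62 CPM in the other Mid libraries), the neutrophil markers to 8.15 CPM (0.107 to 1.23 CPM) and the red blood cell markers to 5645 CPM (1296 to 3085 CPM). Their part was not tested, and without Mid 11 the median was 0.04. With 2 against 5 libraries the smallest exact two-sided permutation p is 0.0952. From Mid to Post 1 member was higher and 2 were lower, where 16.4% of all clusters were called, 7.73% higher and 8.65% lower, and the median was −0.03, or 0.04 without TMM scaling. *Rpl10* had 32.9 to 38.5 CPM in Mid and 42.6 to 50.8 CPM in Post, a rise of 0.35 ± 0.09 (adjusted p = 0.0216). *Rpl7a* had 13.2 to 17.6 and 11.1 to 11.6 CPM and fell by 0.40 ± 0.12 (adjusted p = 0.045). The stronger *Rpl3l* cluster had 195 to 225 and 145 to 174 CPM and fell by 0.34 ± 0.09 (adjusted p = 0.0327). None of the 3 overlapped between the groups, yet each call was lost when single libraries were left out, *Rpl10* without Post 5 (adjusted p = 0.0937), *Rpl7a* without Post 5, 6 or 7 or Mid 10, 11, 12 or 13 (0.0629 to 0.129), and *Rpl3l* without Post 5, 6 or 7 or Mid 11 or 12 (0.0516 to 0.116). Post 5 to 7 and Mid 13 shared sequencing lane 4 and the other libraries lane 3. With lane in the fit the median became 0.14, but Mid 13 is then the only Mid library compared with Post. Mid 13 was the lowest Mid library on the library scale (−0.05).

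With TMM scaling the median change of the members had opposite signs in the experiments. From Mid to Post the sign in experiment #2 was not settled. That median lay between −0.06 and 0.06 when single libraries were left out. It was above 0 without TMM scaling. With lane in the fit it was also above 0, but Mid 13 is then the only Mid library compared with Post. In a fit of the interaction 0 clusters passed an adjusted p of 0.05. For Pre to Mid 27 members and 605 of 10819 clusters had an unadjusted p below 0.05, with a median difference of 0.27 (experiment #2 minus experiment #1), and for Mid to Post 20 members and 704 clusters, with −0.24. *Rpl5* differed most clearly for Pre to Mid, by 0.75 ± 0.17 (p = 0.000137 from edgeR's test, adjusted p = 0.212), and had 102 and 106 CPM in Pre and 118 to 159 CPM in Mid of experiment #2.

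The level of many members differed between the experiments. Between the Pre libraries of experiment #2 and #1, 32 of 83 members were at least 4 times lower in CPM without TMM scaling (38.6%), while this held for 2.08% of all 10757 clusters compared and for 1 of 81 clusters of mitochondrial ribosomal protein genes. The median log2 ratio was −1.27 for the members and −0.02 for all clusters. *Rpl22l1* had 27.4 CPM on this scale in experiment #1 and 0.473 in experiment #2, *Rps15* 209 and 4.83, *Rpl8* 123 and 2.89, *Rps26* 58.9 and 1.56, and *Rplp0* 147 and 6.68. Others were higher: *Rpl32* had 56.0 and 363, *Rplp2* 178 and 573, and *Rpsa* 116 and 374. The ratio had a median of −1.67 in the 66 members with a TOP stretch and −0.68 in the 10 without. The experiments used different mice, sequencers and lanes, and the headers of the deposited columns carry different read-processing names, so that mapping and the sharing out of tags with several positions may have differed too. These cannot be told apart, and no cause was tested. Levels of members are therefore best compared within an experiment.

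In the 32 members that were at least 4 times lower, tags were few in experiment #2. *Rpl3*, for example, had 0.412 to 1.101 CPM there. Without these 32 the median of the other 51 was 0.07 from Pre to Mid and −0.03 from Mid to Post in experiment #2, and −0.16 and 0.18 in experiment #1. For Pre to Mid the medians thus had opposite signs in the experiments without these members too. The −0.03 from Mid to Post in experiment #2 was small. This division was made after the values had been seen.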

How the data were processed

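nAnT-iCAGE libraries of 38 mouse soleus muscles were analysed. The authors mapped reads to mm10 with bwa and hisat2, formed start-site clusters with PromoterPipeline, and deposited a count of tags per cluster and library, with tags that map to several places shared out (rescued). They also deposited TPM values, which the authors scaled to mapped tags including those outside clusters. Every deposited library column entered the analysis (0 left out). Libraries held 9359994 to 39176649 tags in clusters.

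Groups came from the sample labels, and the experiments were fitted apart. Counts were tested with edgeR 4.0.16 in R 4.3.3 (TMM, quasi-likelihood, all groups of an experiment in 1 fit, no covariate), with Benjamini-Hochberg adjustment over all 10776 or 10816 clusters and a threshold of 0.05. The interaction was fitted on the 26 Pre, Mid and Post libraries. Single values were also tested by exact two-sided permutation (Python 3.11.15, scipy 1.17.1). Log levels used log2(CPM + 0.1). On simulated data for Pre to Mid of experiment #1 with 10772 clusters, 127 of 200 changed and 8 unchanged clusters were called. The planted changes were larger than the members' median change. All clusters were given 1 common spread, without differences in composition between libraries. The recovery therefore does not apply to changes as small as that median. Of 72 pairs of libraries of a group, the lowest chi-square per cluster was 12.4, so none was taken as a duplicate.

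Genes were named for the 3 largest changes past the threshold in each direction of a comparison, as paralogues or their parents, for the 3 highest and lowest levels, for known roles, or for having more than 1 cluster, and from each list for the 2 largest changes in each direction. Genes named beyond this, such as *Larp1* and those of the comparison between experiments, were chosen after their values were seen. The members and lists were chosen with earlier results of these data known. The comparison of Pre with Fed was added after the values were seen. Alternatives were DESeq2 1.42.0, a likelihood ratio test, other scalings, low-count filters, the compared groups alone, all 38 libraries with experiment as a term, lane, the replicate number as a block and leaving out each library. Replicates are separate mice. Some members that the rule for named genes covers are not reported here.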

Additional observations from a re-analysis of the deposited data

Results flagged for a closer look

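In 112 tests, of 16 values in each group of 4, 5 or 8 libraries, 9 libraries stood apart from the rest of their group by Dixon's criterion, where chance gives about 5.6. The median log2 level of the members against Pre was −0.046 in Mid 1 and −0.22 to −0.15 in the other 7 Mid libraries of experiment #1. In the same library *Rpl3* had 8.66 CPM, against 3.20 to 5.33 CPM in the others. The adipocyte markers summed to 1535 CPM in Mid 1, the highest of the Mid libraries, and their part was not tested.

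Mid 3 stood apart in 3 members. *Rpl30* had 46.8 CPM there (29.1 to 37.4 CPM in the other Mid libraries), *Rps27rt* 202 CPM (94.2 to 108 CPM) and *Rpl5* 37.4 CPM (45.9 to 52.4 CPM). Pre 4 had 39.4 CPM of *Rpl12* (36.6 to 36.7 CPM in the others) and 71.5 CPM of *Rps26* (48.3 to 51.3 CPM). *Rpl5* had 84.7 CPM in HiT 2, against 75.4 to 76.2 CPM, and *Rps6* had 35.8 CPM in Dep 2, against 29.2 to 30.1 CPM.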

How the results depend on the processing

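Without TMM scaling the median of all clusters itself shifted, most for Pre to HiT (from 0.04 to −0.13), and fewer members passed: 2 lower from Pre to Mid (median −0.24), 2 higher from Mid to Post, 13 lower from HiT to Mid (median −0.23), 1 higher from Pre to HiT, 0 higher from Fed to Mid, 0 higher from Mid to Dep, 0 lower from Pre to Fed and 0 lower from Mid to Post in experiment #2. Among all clusters fewer passed too, 924 lower from Pre to Mid and 808 higher from Mid to Post. The counts were 1010 lower from HiT to Mid, 584 higher from Pre to HiT and 509 higher from Fed to Mid. From Mid to Dep 7 were higher, and from Pre to Fed 4 were lower. From Mid to Post in experiment #2, 671 were lower. The members' median changed sign for Fed to Mid (−0.036), Mid to Dep (−0.037), Pre to HiT (−0.0077) and Pre to Post (−0.021). Relative to the median of all clusters the members' median was −0.16 from Pre to Mid, 0.20 from Mid to Post and −0.26 from Pre to Fed with or without TMM, and −0.34 and −0.35 from HiT to Mid. A change of scaling shifts all clusters by nearly the same amount. These relative values are therefore close by construction and are no evidence that the results hold under another scaling. With deposited TPM the group mean of the library medians was −0.25 in Mid, −0.025 in HiT (opposite in sign), −0.025 in Post, −0.22 in Fed and −0.27 in Dep. Upper-quartile scaling gave 54 lower from Pre to Mid (median −0.23), a median of 0.25 from Mid to Post and 0.083 from Pre to HiT, 5 higher from Fed to Mid, and 2 higher and 0 lower from Mid to Post in experiment #2.

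A likelihood ratio test gave 10 higher from Fed to Mid. DESeq2 gave 5 higher and 1 lower from Mid to Dep, 1 lower from Pre to Post and 1 higher from Pre to Mid in experiment #2. The compared groups alone gave 2 higher from Fed to Mid, 1 higher from Mid to Dep, 22 lower from Pre to Fed and 1 higher from Pre to Post. All 38 libraries with experiment as a term gave 1 higher and 17 lower from Pre to Mid (median −0.10), 33 higher and 1 lower from Mid to Post (median 0.14), 1 higher from Mid to Dep, 22 lower from Pre to Fed, and 1 higher and 2 lower from Pre to Post. With lane as a term experiment #2 gave 1 higher from Pre to Mid. From Mid to Post, where Mid 13 is then the only Mid library compared, the median was 0.14. Causes were not tested.

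The replicate block gave 11 lower from Pre to Mid, 26 higher from Mid to Post, 53 lower from HiT to Mid, 12 higher from Fed to Mid, 36 lower from Pre to Fed, 21 higher from Pre to HiT and 2 higher from Mid to Dep. In its comparisons with Mid only Mid 1 to 4 count, as Mid 5 to 8 share their number with no other library of experiment #1. Deviations of 60 pairs of same-numbered libraries correlated by −0.01 on average (−0.51 to 0.46, 18 over 0.1), and 180 pairs of other numbers by 0.0035, so the numbers pair no samples. No paired analysis was possible for experiment #2 because its groups share no replicate numbers.

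Leaving out 1 library gave 17 to 41 lower from Pre to Mid (median −0.18 to −0.14), 32 to 49 higher from Mid to Post (0.16 to 0.21), 55 to 71 lower and 2 higher from HiT to Mid (−0.35 to −0.29), 2 to 24 higher from Fed to Mid (0.07 to 0.13), 1 to 3 higher from Mid to Dep (0.04 to 0.09), 15 to 44 lower from Pre to Fed (−0.27 to −0.22), 17 to 26 higher from Pre to HiT (0.13 to 0.19), 0 to 1 lower from Pre to Post (0.02 to 0.07), 0 to 1 higher from Pre to Mid of experiment #2 (0.03 to 0.15), and 0 to 3 higher and 0 to 2 lower from Mid to Post of experiment #2 (−0.06 to 0.06). In the last comparison the libraries that moved the counts were Post 5 to 7 and Mid 10 to 13.

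The 44 members with a TOP stretch at the deposited peak became 26 at the start 2 bases downstream (15 with at least 6 pyrimidines after the C), 21 (14) 1 base upstream and 7 (4) 1 base downstream of that start. With 4 to 8 libraries a group and 2 to 5 in experiment #2, and few tags for members such as *Rpl3* there, small changes could be missed.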
